A study of Mus musculus with 9 samples.

Results

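The BCL2 family decides at the mitochondrial outer membrane whether a cell lives or dies, and 10 of its genes were followed here: the inhibitors of apoptosis Bcl2, Bcl2l1 and Mcl1, the pore-forming effectors Bax and Bak1, and the BH3-only genes Bbc3, Pmaip1, Bcl2l11, Bid and Bad. They were picked by symbol from the 21959 genes of the deposited table, with earlier results of these data known. RNA sequencing of total RNA from DC2.4, an immortalised mouse dendritic cell line, yielded 9 libraries, 3 each of OMVSSDC, ZJDC and PBSDC. The study set out to find which immune-related genes change when DC2.4 cells meet engineered extracellular vesicles, which its design text calls EMV@SS. The labels do not spell out OMVSS or ZJ, tie the vesicle to a group, give a dose or time, or say whether replicate libraries come from separate cultures. PBSDC was taken as the reference from its name, that of a buffer, and all p-values measure the spread between these libraries, which may be technical. As one immortalised line, DC2.4 is a limited model of dendritic cells in a tissue.

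BCL2 family proteins meet through a short helix, the BH3 domain. Bax and Bak, once active, form pores that let cytochrome c out of mitochondria, which leads to activation of caspases. Bcl-2, Bcl-xL (from Bcl2l1) and Mcl-1 hold Bax, Bak and BH3-only proteins in check, and the BH3-only proteins, among them Puma (Bbc3), Noxa (Pmaip1), Bim (Bcl2l11), Bid and Bad, block those inhibitors or activate the effectors. In dendritic cells Bim and Bcl-2 are known as regulators of lifespan, and microbial signals change how long these cells live. Much of the family's control lies in protein stability, phosphorylation and cleavage, which RNA sequencing does not measure.

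The stretches of 250 bases before annotated transcription starts are shown for 5 genes whose RNA differed from PBSDC in both other groups. Which of the annotated starts DC2.4 cells use was not measured. The sequences are from RefSeq on GRCm38.p6, run 5′ to 3′ along the gene's strand, and carry motif matches in capitals. RefSeq windows were matched by symbol for 9 of the 10 genes, 15 windows in all, and Pmaip1 is named only. Where a gene has several windows, those with an NF-kB or FOXO match are shown. Bbc3 has 3 windows. The first one shown lies at chr7:16309333-16309582 on the plus strand, and its capitals mark an NF-kB site. The second lies at chr7:16310011-16310260 on the plus strand, and its capitals mark the letters GTAAACA of a FOXO motif, read on the opposite strand. One of the 2 Bcl2l11 windows, shown here, lies at chr2:128125788-128126037 on the plus strand, with the same FOXO letters in capitals, and the other held no motif. Of the 3 Bcl2l1 windows, the one shown lies at chr2:152830718-152830967 on the minus strand, with an NF-kB site in capitals, and the other two held no motif. The Bcl2 window at chr1:106714291-106714540 and the Bid window at chr6:120916825-120917074, both on the minus strand, held none of the motifs searched.
Bbc3, first window: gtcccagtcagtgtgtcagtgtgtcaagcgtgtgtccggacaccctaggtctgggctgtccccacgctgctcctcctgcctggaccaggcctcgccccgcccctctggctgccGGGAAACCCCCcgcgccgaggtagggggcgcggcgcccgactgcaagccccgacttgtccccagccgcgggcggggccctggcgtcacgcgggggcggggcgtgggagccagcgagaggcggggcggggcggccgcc
Bbc3, second window: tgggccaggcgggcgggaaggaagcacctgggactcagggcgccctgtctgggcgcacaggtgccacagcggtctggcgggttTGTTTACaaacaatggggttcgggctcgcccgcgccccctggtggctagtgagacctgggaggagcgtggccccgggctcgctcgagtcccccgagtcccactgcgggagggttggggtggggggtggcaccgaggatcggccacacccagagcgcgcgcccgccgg
Bcl2l11: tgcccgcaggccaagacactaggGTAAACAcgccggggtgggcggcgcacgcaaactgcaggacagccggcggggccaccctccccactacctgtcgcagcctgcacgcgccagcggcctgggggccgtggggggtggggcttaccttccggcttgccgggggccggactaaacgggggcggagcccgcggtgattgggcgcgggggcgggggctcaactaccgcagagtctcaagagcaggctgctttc
Bcl2l1: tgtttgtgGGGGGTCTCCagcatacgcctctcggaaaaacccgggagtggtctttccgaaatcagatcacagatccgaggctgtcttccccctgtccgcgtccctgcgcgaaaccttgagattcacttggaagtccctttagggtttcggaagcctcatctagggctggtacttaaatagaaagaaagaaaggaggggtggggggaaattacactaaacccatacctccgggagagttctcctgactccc
Bcl2: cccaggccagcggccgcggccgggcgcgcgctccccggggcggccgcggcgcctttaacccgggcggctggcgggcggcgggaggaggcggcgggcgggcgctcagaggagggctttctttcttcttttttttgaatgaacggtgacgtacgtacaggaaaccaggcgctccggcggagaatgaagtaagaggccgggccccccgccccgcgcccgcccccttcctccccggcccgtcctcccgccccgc
Bid: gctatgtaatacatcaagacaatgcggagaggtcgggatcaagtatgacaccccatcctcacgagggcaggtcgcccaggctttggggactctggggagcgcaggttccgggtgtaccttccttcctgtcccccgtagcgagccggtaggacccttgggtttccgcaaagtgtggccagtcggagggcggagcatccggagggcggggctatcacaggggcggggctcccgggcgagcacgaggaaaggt

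Both strands of every window were searched for 7 motifs, and the share of all 32851 RefSeq mouse windows of this length with a match is given beside each. The FOXO letters GTAAACA stood in 2 of the 15 windows, those shown for Bbc3 and Bcl2l11, against 3.17% of all windows. An NF-kB site stood in 2 of 15, those shown for Bbc3 and Bcl2l1, against 3.9% of all windows. The E-box CACGTG stood in 2 of 15, against 6.02% of all windows. One of these was the Bax window and the other a Bbc3 window not shown. A p53 half-site stood in 1 of 15, the Bax window, against 7.13% of all windows. The AP-1 letters TGANTCA (6.75% of all windows), the cAMP response element TGACGTCA (1.55%) and the interferon-stimulated response element (2.98%) stood in 0 of the 15. A match is a string of letters, not a bound site.

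The 9 libraries held 12784931 to 18388959 counts, and all 10 genes passed the filter on low counts that left 11568 genes to test. Some libraries stood apart from their group: OMVSSDC replicates 1 and 2 were close to each other (chi-square per degree of freedom over genes 1.87) and far from OMVSSDC replicate 3 (59.3 and 61.8), while OMVSSDC replicate 3 was closer to the ZJDC libraries (7.43 to 10.2). Of 11 dendritic and myeloid markers, Ptprc, Spi1, Csf1r, Cd68, Cd74 and Irf8 were high. Itgam had 328 to 344 CPM in PBSDC and 95.6 to 174 CPM in the other groups. Itgax reached 1.68 to 4.80 CPM and Zbtb46 2.85 to 9.33 CPM. The defining markers Flt3 and H2-Aa were at or near 0 in every library (at most 0.288 CPM). Of the 9 tested markers of that list, 5 were higher and 3 lower than in PBSDC in either other group, and its summed level was 3867 to 4639 CPM in OMVSSDC, 4262 to 4448 CPM in ZJDC and 4040 to 4175 CPM in PBSDC. The summed level of 20 heart and brain markers was 7.21, 6.81 and 22.4 CPM in OMVSSDC replicates 1 to 3, 19.6 to 27.7 CPM in ZJDC and 36.0 to 39.6 CPM in PBSDC, with 8 tested and 3 called lower in OMVSSDC, 1 in ZJDC. Without OMVSSDC replicate 3, 9 of 9 tested were lower in OMVSSDC and 2 in ZJDC, and with replicate 3 as the sole OMVSSDC library 1 of 11 was higher and 1 lower in OMVSSDC. The 7 fibroblast and endothelial markers summed to 10.8, 10.3 and 30.1 CPM in OMVSSDC replicates 1 to 3, 15.8 to 21.05 CPM in ZJDC and 26.9 to 31.9 CPM in PBSDC, with 1 of 6 tested higher and 2 lower in either group; 5 were lower in OMVSSDC without its replicate 3. Epithelial markers summed to at most 1.69 CPM, with 1 tested and not called, and lymphoid markers to at most 0.865 CPM, with 0 tested. The part of these markers in the results was not tested.

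Per transcript length, Mcl1 was the most abundant of the 10 messages in all 3 groups, and Bad the least. Levels per length are FPKM, fragments per kilobase of gene length scaled to library depth, as the authors deposited them. Mcl1, the short-lived inhibitor that many cells need to survive, had 83.2 ± 5.39 FPKM in OMVSSDC, 80.1 ± 3.50 FPKM in ZJDC and 86.4 ± 3.15 FPKM in PBSDC (SD, n = 3 each). In PBSDC the order was Mcl1, Bak1 (72.6), Bid (34.9), Bcl2l1 (28.8), Bax (22.2), Pmaip1 (16.3), Bbc3 (6.48), Bcl2l11 (4.38), Bcl2 (3.55) and Bad (0.159 FPKM), and no neighbours in it overlapped between libraries.

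The order differed in the other groups. In OMVSSDC it was Mcl1, Bcl2l1 (63.4), Bak1 (49.5), Bbc3 (46.2), Bax (28.4), Pmaip1 (21.3), Bid (15.5), Bcl2 (11.8), Bcl2l11 (7.57) and Bad (0.365 FPKM). Each neighbour pair from Bcl2l1 down to Pmaip1 overlapped there. In ZJDC it was Mcl1, Bak1 (59.0), Bcl2l1 (50.7), Bbc3 (22.4), Bax (19.5), Pmaip1 (18.7), Bid (15.2), Bcl2 (9.69), Bcl2l11 (5.95) and Bad (0.326 FPKM), where Bbc3, Bax and Pmaip1 overlapped with their neighbours. Bbc3 stood 4th in OMVSSDC and in ZJDC but 7th in PBSDC, while Bid stood 7th in OMVSSDC and in ZJDC but 3rd in PBSDC.

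**Figure D1:**
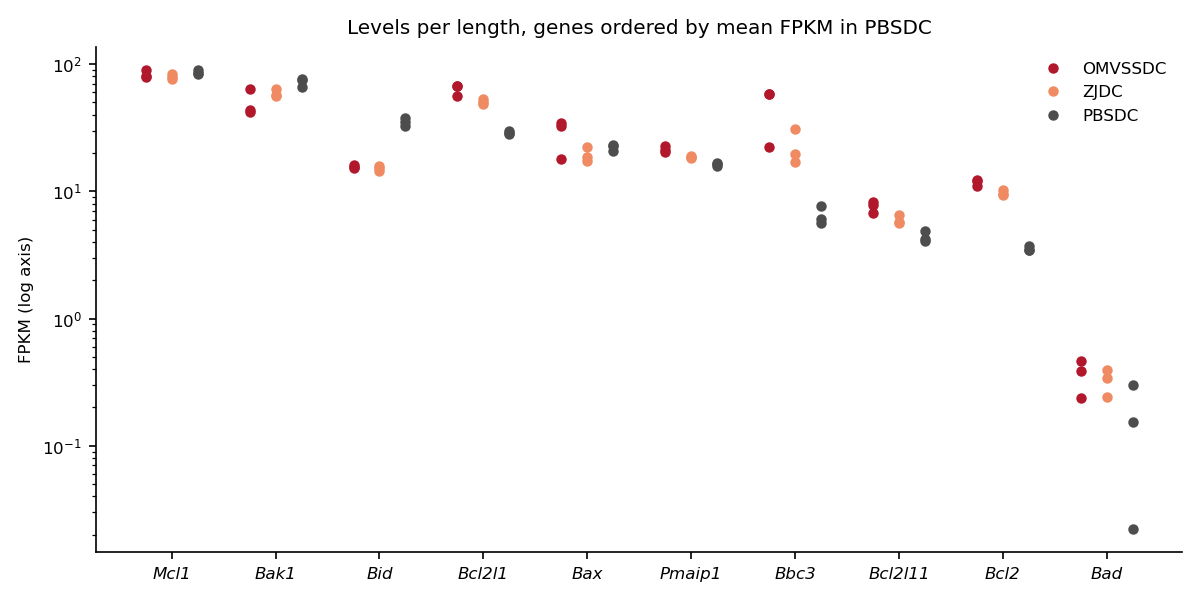
FPKM of the 10 genes on a log axis, 1 point per library, with OMVSSDC, ZJDC and PBSDC side by side within each gene and genes ordered by mean FPKM in PBSDC. Bcl2l1, Bcl2 and Bbc3 lie higher in OMVSSDC and ZJDC than in PBSDC, Bid lies lower, and Bad lies under 0.5 FPKM in every library.

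Genes of both camps of the family rose in OMVSSDC over PBSDC. The inhibitors Bcl2 and Bcl2l1 and the BH3-only genes Bbc3, Bcl2l11 and Pmaip1 rose, while the BH3-only gene Bid and the effector Bak1 fell. Bbc3 had the largest fold change of the 10, 6.49-fold. In all, 7 of the 10 genes passed an adjusted p of 0.05 (5 higher, 2 lower), against 63.6% of the 11568 tested genes (33.4% higher, 30.2% lower), so the share of the family called was near that of all genes. Without OMVSSDC replicate 3 all 10 passed (7 higher, 3 lower), as did 8813 of all genes, and 8 passed (5 higher, 3 lower) with replicate 3 as the sole OMVSSDC library. In bulk RNA, a change in the share of cells and a change in RNA per cell cannot be told apart. Scaling by library size alone shifted the median of all genes by 0.13 on the log2 scale and gave 4670 higher and 2819 lower genes, beside 3866 and 3492. The groups did not overlap for 7 of the 10, against 65.7% of all genes. The median log2 fold change over the 10 was 0.46, beside 0.05 over all tested genes. Adjusted p-values here and throughout are from edgeR's quasi-likelihood test with Benjamini-Hochberg adjustment over all tested genes.

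**Figure D2:**
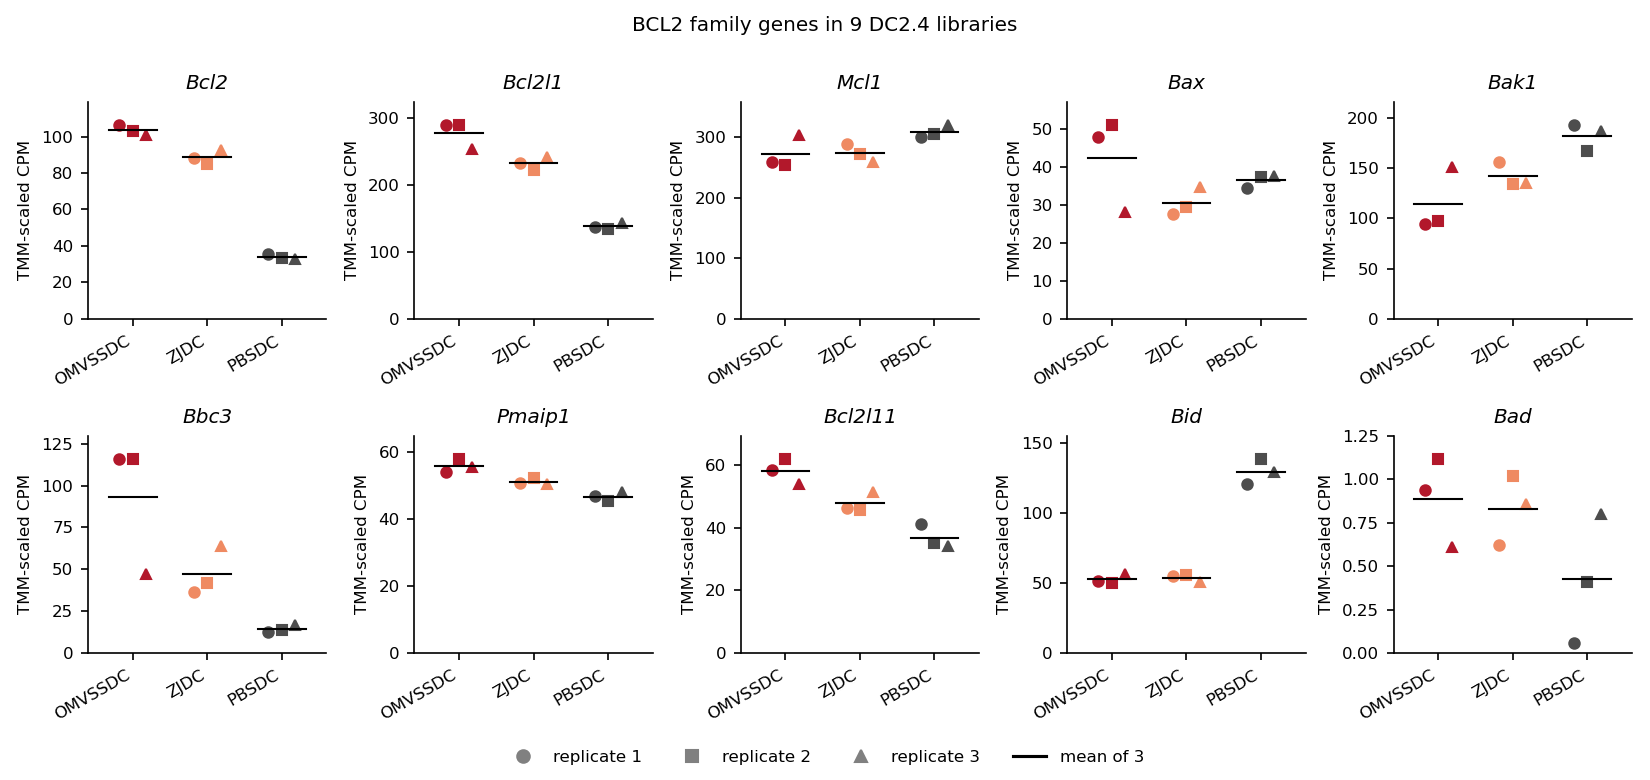
CPM, counts scaled to library depth with TMM factors, for the 10 genes, 1 point per library (marker shape gives the replicate number), with OMVSSDC, ZJDC and PBSDC from left to right and a line at each mean of 3; every axis starts at 0. Bcl2, Bcl2l1, Bbc3 and Bcl2l11 are higher and Bid lower in all 6 OMVSSDC and ZJDC libraries than in any PBSDC library, while Bbc3, Bax and Bak1 of OMVSSDC replicate 3 lie away from replicates 1 and 2.

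Of the inhibitors, Bcl2, the founding survival gene of the family, was the more changed. The table places it on chromosome 1 at 106465908 to 106642004 on the minus strand, in a genome build not given in the sources used here. Of 21851 matched genes, 514 had the same start and end there as in GRCm38. Positions of genes given here and those of the promoter windows on GRCm38.p6 can therefore not be compared. Its CPM, counts scaled to library depth with TMM factors, were 106, 103 and 101 in OMVSSDC replicates 1 to 3, against 35.8, 33.3 and 32.9 in PBSDC. All 3 OMVSSDC libraries lay far above the PBSDC libraries and close to each other. The log2 fold change was 1.61 ± 0.0663 (SE), a 3.04-fold rise (adjusted p = 5.28e-08).

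Bcl2l1, which encodes Bcl-xL, lies on chromosome 2 at 152622588 to 152673648 on the minus strand. It had 289, 289 and 254 CPM in OMVSSDC, against 137, 134 and 144 CPM in PBSDC. The groups did not overlap, and the log2 fold change was 1.01 ± 0.0714 (SE, adjusted p = 1.21e-06). Mcl1 had 259.6, 254 and 304 CPM in OMVSSDC, against 300.2, 305 and 320.5 CPM in PBSDC. Here OMVSSDC replicate 3 lay within the PBSDC range and the other two below it. The log2 fold change of Mcl1 was -0.18 (95% interval -0.36 to 0.00, adjusted p = 0.0734). It passed without OMVSSDC replicate 3 (-0.27, adjusted p = 1.60e-05), with DESeq2 (-0.21, adjusted p = 0.0414) and with RLE size factors (-0.21, adjusted p = 0.0486).

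Of the BH3-only genes, Bbc3, whose product Puma binds all the inhibitors and is a known p53 target, had the largest fold change. The table places it on chromosome 7 at 16042318 to 16052130 on the plus strand. It had 116, 116 and 47.2 CPM in OMVSSDC, against 12.6, 13.6 and 16.9 CPM in PBSDC. OMVSSDC replicate 3 lay far below replicates 1 and 2, yet above every PBSDC library. The log2 fold change was 2.70 ± 0.349 (SE, adjusted p = 7.95e-05). It was 3.02 without replicate 3 and 1.72 with replicate 3 as the sole OMVSSDC library (adjusted p = 0.0159), so the size of the Bbc3 rise rests on the libraries used.

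Bcl2l11, which encodes Bim, had 58.4, 61.9 and 54.0 CPM in OMVSSDC, against 41.2, 35.2 and 34.0 CPM in PBSDC. All OMVSSDC libraries were above all PBSDC libraries, and the log2 difference was 0.66 ± 0.0943 (SE, adjusted p = 0.000164). Pmaip1, whose product Noxa binds Mcl-1, had 53.8, 57.7 and 55.3 CPM in OMVSSDC, against 46.7, 45.3 and 47.8 CPM in PBSDC. The groups did not overlap although the rise was small, 1.19-fold (log2 fold change 0.26 ± 0.0632, SE, adjusted p = 0.00521). Bcl2 and Pmaip1 were among the genes whose fold change in OMVSSDC hardly differed between replicate 3 alone (1.56 and 0.24 on the log2 scale) and replicates 1 and 2 (1.62 and 0.26).

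Bid, the BH3-only protein that caspase-8 cleaves to link death receptors to mitochondria, went the other way. The table places it on chromosome 6 at 120868891 to 120893814 on the minus strand. It had 51.8, 50.3 and 56.4 CPM in OMVSSDC, against 121, 139 and 129 CPM in PBSDC. Every OMVSSDC library held less than any PBSDC library, and the log2 fold change was -1.29 ± 0.0778 (SE, adjusted p = 4.43e-07). Bid shares 913 bases of the table's span with Bcl2l13 on the opposite strand, and whether counting used strand is not stated, so reads of the shared stretch could belong to either gene. Bcl2l13, itself a family member, was at 0.17 on the log2 scale (adjusted p = 0.0617).

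Bad, a BH3-only protein held inactive by phosphorylation, was close to the limit of detection. It had 13, 20 and 9 counts in OMVSSDC, against 1, 6 and 11 counts in PBSDC. The groups overlapped, and the log2 fold change of 1.14 had a 95% interval of -0.15 to 2.43 (adjusted p = 0.110). It passed without OMVSSDC replicate 3 (1.35, adjusted p = 0.0296) and without PBSDC replicate 3 (1.96, adjusted p = 0.0262). Bad also shares 620 bases with Gpr137 on the opposite strand, which had 1908 counts over the 9 libraries beside 100 for Bad.

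Of the effectors, Bak1 fell and Bax did not pass the test. Bak1, which sits on the mitochondrial membrane in healthy cells, had 94.9, 97.8 and 152 CPM in OMVSSDC, against 193, 168 and 187 CPM in PBSDC. The groups did not overlap, with replicate 3 nearest to PBSDC, and the log2 fold change was -0.67 ± 0.161 (SE, adjusted p = 0.00445). It was -0.92 without OMVSSDC replicate 3 and -0.27 with that library alone (adjusted p = 0.0110). Bak1 overlaps Ggnbp1 on the opposite strand over 9200 bases, but Ggnbp1 had 121 counts in all, beside 20605 for Bak1.

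Bax, which shuttles between cytosol and mitochondria, had 48.1, 51.2 and 28.3 CPM in OMVSSDC, against 34.5, 37.4 and 37.8 CPM in PBSDC. OMVSSDC replicates 1 and 2 lay above all PBSDC libraries and replicate 3 below all of them. The log2 fold change of 0.22 did not pass (adjusted p = 0.331), and its direction depended on the libraries: 0.44 without replicate 3 (adjusted p = 3.03e-05) and -0.37 with replicate 3 alone (adjusted p = 0.00997). The GC content of the longest transcript was highest for Bbc3 (65.2%) and Bax (63.5%) among the 10, beside a median of 49.6% over the tested genes. With the trend with gene length and GC content removed from each library, an alternative added after the data were seen, the log2 fold change of Bbc3 was 2.25 and that of Bax -0.22 (adjusted p = 0.0441). The part of GC content in the spread between OMVSSDC libraries was not tested.

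**Figure D3:**
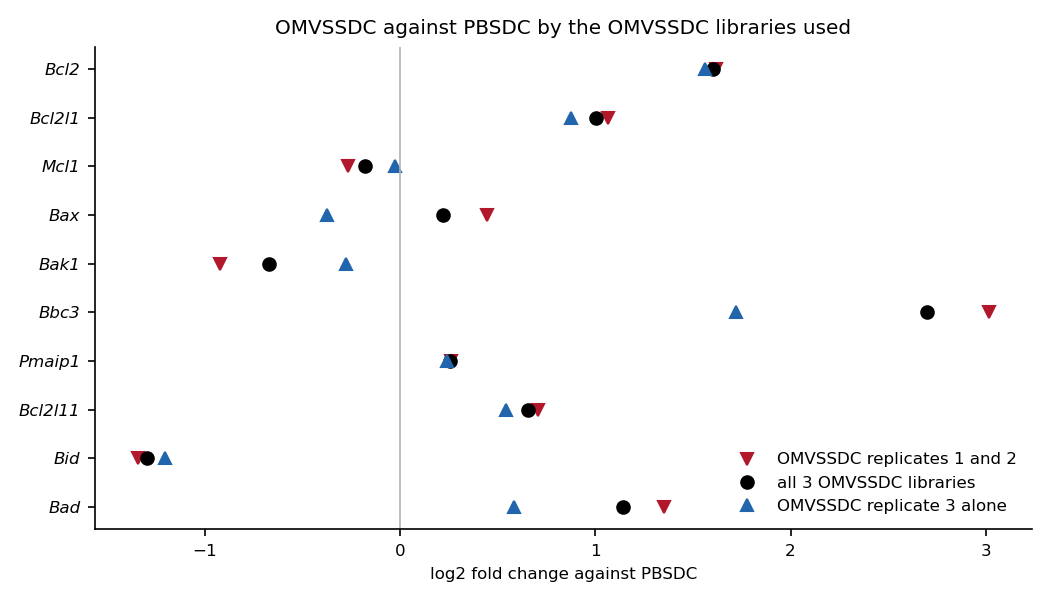
Log2 fold change of OMVSSDC against PBSDC for the 10 genes, computed with OMVSSDC replicates 1 and 2, with all 3 OMVSSDC libraries, and with OMVSSDC replicate 3 alone. Bcl2, Pmaip1 and Bid differ little between the 3, Bbc3 ranges between 1.72 and 3.02, and Bax lies on either side of 0.

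In ZJDC cells Bbc3, Bcl2, Bcl2l1 and Bcl2l11 rose over PBSDC cells and Bid fell. In this comparison 5 of the 10 genes passed (4 higher, 1 lower), against 54.7% of all tested genes (27.6% higher, 27.1% lower). The groups did not overlap for 8 of the 10, against 72.2% of all genes. The median log2 fold change of the 10 was 0.25, beside 0.01 over all tested genes. OMVSSDC and ZJDC were set against the same PBSDC libraries, so the 2 comparisons are not independent.

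Bcl2 had 88.1, 85.1 and 92.6 CPM in ZJDC, against the 32.9 to 35.8 CPM of PBSDC. Its log2 fold change was 1.38 (adjusted p = 2.08e-07), and that of Bcl2l1, with 233, 223 and 242 CPM in ZJDC, was 0.75 (adjusted p = 1.35e-05). Neither gene had a ZJDC library within the PBSDC range. Bbc3 had 36.4, 41.8 and 64.2 CPM in ZJDC, all above PBSDC, at a log2 difference of 1.73 ± 0.346 (SE, adjusted p = 0.00186), or 3.32-fold. Bcl2l11 had 46.3, 45.5 and 51.4 CPM in ZJDC, also above every PBSDC library, for a log2 fold change of 0.37 (adjusted p = 0.00697). Bid, with 55.0, 55.9 and 50.5 CPM in ZJDC, fell by 1.27 on the log2 scale (adjusted p = 8.07e-07).

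The remaining 5 genes did not pass in ZJDC. Bak1 had 156, 135 and 135 CPM in ZJDC, against 193, 168 and 187 CPM in PBSDC, a log2 difference of -0.36 (adjusted p = 0.0805). Mcl1 had 289.7, 273 and 259 CPM in ZJDC, with a log2 fold change of -0.17 (adjusted p = 0.0928). Pmaip1 had 50.6, 52.1 and 50.3 CPM in ZJDC, with a log2 fold change of 0.13 (adjusted p = 0.106). These 3 genes missed the threshold although their groups did not overlap, and Pmaip1 passed with library size alone (0.20, adjusted p = 0.0301) and after removal of the length and GC trend (0.15, adjusted p = 0.0473). Bax had 27.6, 29.5 and 34.9 CPM in ZJDC (log2 fold change -0.25, adjusted p = 0.290), and Bad 11, 13 and 16 counts (1.01, adjusted p = 0.169), both overlapping with PBSDC. The count depends on a library outside the comparison: without OMVSSDC replicate 3, 8 of the 10 genes passed. In that setting 8242 of all genes passed, beside 6323 with all libraries. Mcl1, Bax and Bak1 were the added ones, all lower (adjusted p = 0.000829, 0.00779 and 1.04e-05). The same 3 were added when ZJDC and PBSDC alone were fitted, where 8009 of all genes passed. Bad passed without PBSDC replicate 3 (1.84, adjusted p = 0.0419).

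Between OMVSSDC and ZJDC no call was made for any of the 10 genes. In edgeR's quasi-likelihood test 0 of the 10 passed, against 1.95% of all tested genes (0.856% higher, 1.1% lower in OMVSSDC), and 5 had an unadjusted p under 0.05. Over all genes 99 were higher and 127 lower in OMVSSDC, beside 115 and 91 with library size alone. DESeq2 called 3 (Bbc3, Bcl2 and Bcl2l1) and limma-voom 0. The groups did not overlap for 4 of the 10 (Bcl2, Bcl2l1, Bcl2l11 and Pmaip1, all higher in OMVSSDC), against 24% of all genes. The log2 fold change of OMVSSDC against ZJDC was 0.22 for Bcl2 (95% interval 0.08 to 0.37, adjusted p = 0.0752), 0.26 for Bcl2l1 (0.10 to 0.41, adjusted p = 0.0732) and 0.97 for Bbc3 (0.26 to 1.68, adjusted p = 0.0923). For Bid it was -0.03 (-0.20 to 0.15) and for Mcl1 -0.01 (-0.19 to 0.17), intervals that hold 0. Without OMVSSDC replicate 3, 6 of the 10 passed, as did 6539 of all genes (3243 higher, 3296 lower). Of the 10, Bbc3 (1.28), Bax (0.69), Bcl2l11 (0.33), Bcl2l1 (0.31) and Bcl2 (0.24) were then higher in OMVSSDC and Bak1 (-0.56) lower. With replicate 3 as the sole OMVSSDC library, 0 of the 10 passed and Bbc3 was at -0.03.

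**Figure D4:**
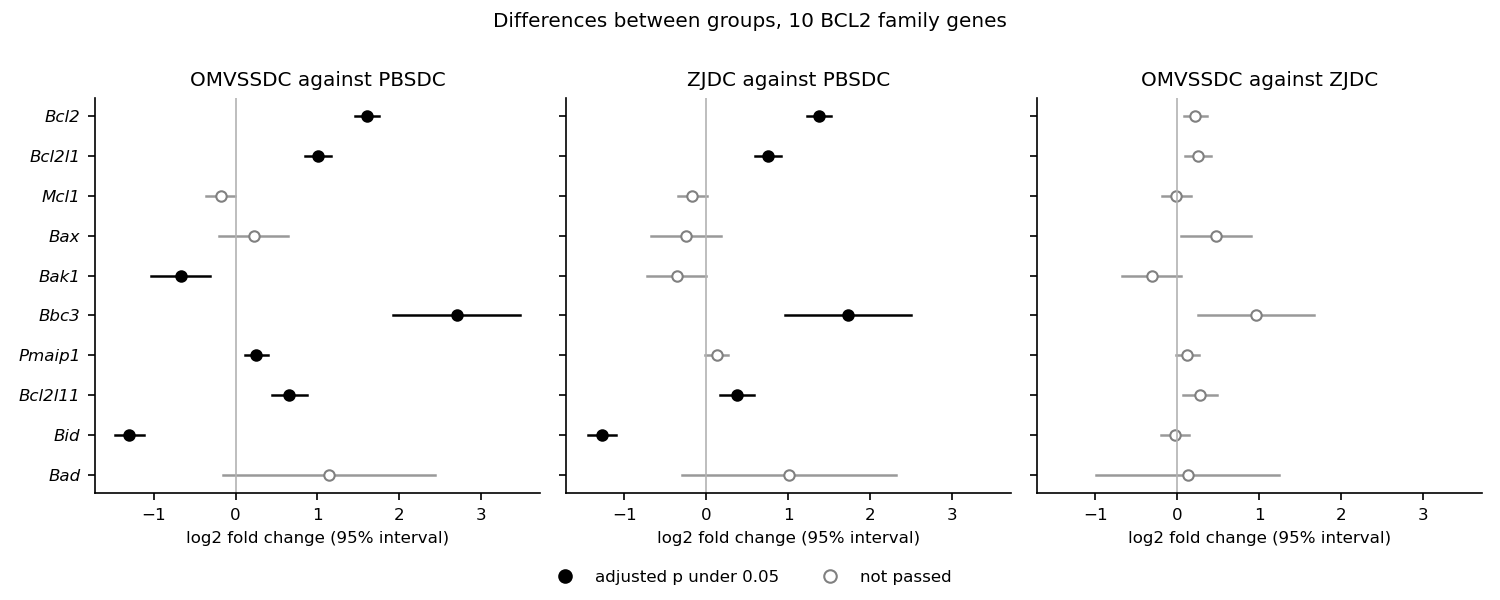
Log2 fold changes with 95% intervals for the 10 genes in OMVSSDC against PBSDC, ZJDC against PBSDC and OMVSSDC against ZJDC, on one scale; filled points passed an adjusted p of 0.05 and open points did not. Filled points number 7, 5 and 0.

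The balance of messages within a library does not depend on library scaling, and it is described here as ratios of FPKM with no test. The trend with gene length and GC content was not removed from these ratios, and its part in them was not tested. Bax to Bcl2, a ratio often quoted for proneness to apoptosis, was 2.63, 2.88 and 1.63 in OMVSSDC, 1.82, 2.01 and 2.19 in ZJDC, and 5.59, 6.52 and 6.67 in PBSDC. The mean ratio was thus 2.38 ± 0.663 in OMVSSDC, 2.01 ± 0.183 in ZJDC and 6.26 ± 0.585 in PBSDC (SD, n = 3 each), with PBSDC apart from both other groups. Bbc3 to Mcl1 went in the opposite sense, at 0.567 ± 0.275 in OMVSSDC, 0.282 ± 0.103 in ZJDC and 0.0748 ± 0.00911 in PBSDC. Bcl2l1 to Mcl1, the balance of the stable against the short-lived inhibitor, was 0.767 ± 0.125 in OMVSSDC, 0.635 ± 0.0534 in ZJDC and 0.334 ± 0.00594 in PBSDC. In all 3 of these ratios both other groups lay clear of PBSDC in every library.

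Of the remaining ratios, Bcl2l11 to Mcl1 was at 0.0917 ± 0.0144 in OMVSSDC, 0.0745 ± 0.00865 in ZJDC and 0.0509 ± 0.00675 in PBSDC, and Pmaip1 to Mcl1 was at 0.257 ± 0.0284 in OMVSSDC, 0.234 ± 0.0131 in ZJDC and 0.189 ± 0.00483 in PBSDC. Bax to Bak1 was 0.774, 0.799 and 0.285 in OMVSSDC, 0.270, 0.334 and 0.394 in ZJDC, and 0.273, 0.341 and 0.309 in PBSDC. OMVSSDC replicates 1 and 2 thus lay above all other libraries in that ratio, and replicate 3 among them. Sums of FPKM, unlike the ratios, depend on library scaling, and FPKM carry no TMM factors. These factors were 1.01 to 1.07 in OMVSSDC, 0.989 to 1.01 in ZJDC and 0.954 to 0.959 in PBSDC. Sums of OMVSSDC thus stand higher against PBSDC than TMM-scaled values would. Summed over the 3 inhibitors, FPKM were 156 to 160.2 in OMVSSDC, 138 to 144 in ZJDC and 116 to 123 in PBSDC. The 2 effectors summed to 74.4 to 81.3 FPKM in OMVSSDC, 74.7 to 81.4 in ZJDC and 89.3 to 97.5 in PBSDC. The 5 BH3-only genes summed to 103, 105 and 65.6 FPKM in OMVSSDC, 56.5, 60.5 and 70.5 in ZJDC, and 59.4, 63.7 and 63.7 in PBSDC. In ZJDC the BH3-only sum thus overlapped with PBSDC, the rise of Bbc3 standing beside the fall of Bid.

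**Figure D5:**
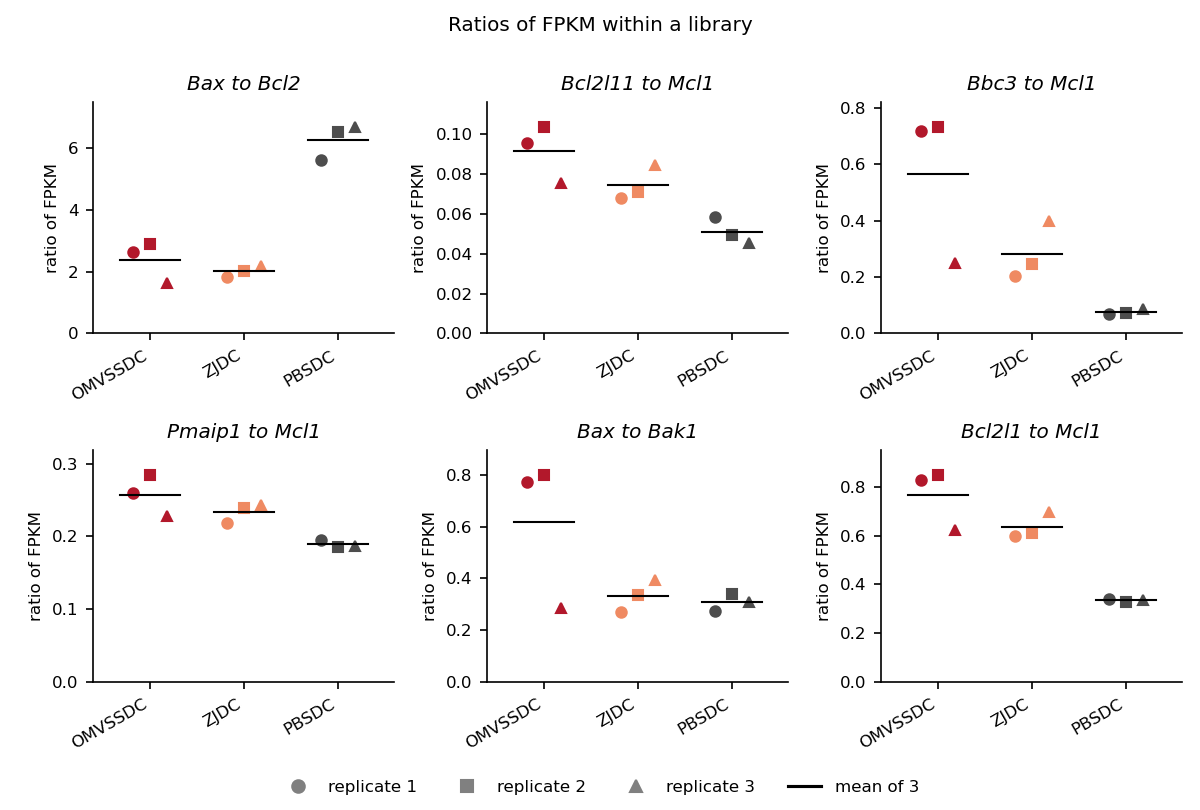
Ratios of FPKM of 2 genes within a library, 1 point per library, with OMVSSDC, ZJDC and PBSDC from left to right and a line at each mean of 3. Bax to Bcl2 lies between 1.63 and 2.88 in OMVSSDC and ZJDC and between 5.59 and 6.67 in PBSDC, and Bax to Bak1 is high in OMVSSDC replicates 1 and 2 alone.

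Among 15 other BCL2 family genes, the A1 genes and Bcl2l2, which encode further inhibitors, rose in OMVSSDC. Of the 11 that could be tested, 6 were higher and 2 lower in OMVSSDC than in PBSDC, and 4 were higher and 1 lower in ZJDC; the median log2 fold changes were 0.58 and 0.46. The 8 and 5 called are near the shares of all tested genes, 63.6% and 54.7%. The numbers without OMVSSDC replicate 3 were 7 and 2 in OMVSSDC, and 6 and 2 in ZJDC. In that setting 8813 and 8242 of all genes were called in the 2 comparisons, here and for the lists that follow. The Bcl2a1 genes encode A1, an NF-kB-induced inhibitor of myeloid cells, and are near-identical copies whose reads the counting could split, so their levels are uncertain one by one. Bcl2a1d had 107, 102 and 73.4 CPM in OMVSSDC, 75.0, 69.2 and 81.7 CPM in ZJDC and 23.2, 23.7 and 27.8 CPM in PBSDC, log2 fold changes of 1.92 and 1.60 over PBSDC (adjusted p = 1.89e-06 and 9.90e-06). All 6 OMVSSDC and ZJDC libraries lay above the PBSDC libraries.

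Bcl2a1a rose by 1.48 in OMVSSDC and 1.39 in ZJDC on the log2 scale (adjusted p = 7.66e-06 and 1.82e-05). Bcl2a1b, at 3 to 42 counts, rose by 2.37 in OMVSSDC (adjusted p = 0.00122, and 0.0753 with replicate 3 as the sole OMVSSDC library), and had a log2 fold change of 1.30 in ZJDC (adjusted p = 0.0513; it passed without OMVSSDC replicate 1 or 3, at 0.0432 and 0.00957). Bcl2l2, the inhibitor Bcl-w, had 28.8, 31.5 and 20.4 CPM in OMVSSDC, 19.2, 18.3 and 21.4 CPM in ZJDC and 13.0, 12.8 and 11.9 CPM in PBSDC. It rose by 1.10 in OMVSSDC and 0.65 in ZJDC (adjusted p = 0.000136 and 0.00527), with no overlap with PBSDC.

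Of the other BH3-only genes, Bik rose in OMVSSDC and Bmf fell. Bik had 11.9, 12.1 and 5.005 CPM in OMVSSDC, 5.81, 5.16 and 5.74 CPM in ZJDC and 2.77, 3.36 and 3.58 CPM in PBSDC, a rise of 1.59 in OMVSSDC (adjusted p = 0.00112) and a log2 fold change of 0.79 in ZJDC (adjusted p = 0.0544; it passed without OMVSSDC replicate 2 or 3, at 0.0494 and 0.000113). As with Bbc3, OMVSSDC replicate 3 lay far below replicates 1 and 2. Bmf, which senses loss of attachment in other cells, had 1.66, 0.949 and 0.676 CPM in OMVSSDC, 0.676, 1.17 and 0.698 CPM in ZJDC and 2.54, 2.67 and 2.77 CPM in PBSDC. All 6 OMVSSDC and ZJDC libraries lay below PBSDC, and the level fell by 1.29 in OMVSSDC and by 1.68 in ZJDC on the log2 scale (adjusted p = 0.00477 and 0.00156). Of the mitophagy receptors, Bnip3 fell by 1.19 in OMVSSDC (adjusted p = 0.00287; in ZJDC -0.40, adjusted p = 0.204, or 0.0401 without OMVSSDC replicate 3), whereas its relative Bnip3l rose by 0.58 and 0.46 (adjusted p = 5.39e-05 and 0.000334).

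Bcl2l12, Bcl2l13 and Bcl2l14 did not pass in either comparison, with log2 fold changes of -0.05, 0.17 and -0.40 in OMVSSDC and -0.33, 0.06 and 0.00 in ZJDC. Bcl2l13 passed in OMVSSDC without replicate 3 (0.22, adjusted p = 0.00136). Bok, Hrk and Bcl2l15 fell under the filter on low counts, and Bcl2l10 had 0 counts in all libraries. In OMVSSDC against ZJDC 0 of the 11 passed in edgeR's quasi-likelihood test, with 5 at an unadjusted p under 0.05. Without OMVSSDC replicate 3, 6 were higher and 1 lower in OMVSSDC than in ZJDC, beside 6539 of all genes called in that setting.

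Downstream of the pores, the genes of the apoptosome, caspases and released mitochondrial proteins included calls in both directions. In OMVSSDC 3 of 12 were higher and 4 lower than in PBSDC, and in ZJDC 0 were higher and 2 lower, with median log2 fold changes of 0.01 and -0.11. The 7 called in OMVSSDC are near the 63.6% of all tested genes, and the 2 in ZJDC lie below the 54.7%. Cycs, the cytochrome c gene, fell by 0.63 in OMVSSDC (adjusted p = 0.00194), beside -0.32 in ZJDC (adjusted p = 0.0574). Htra2, a serine protease released from mitochondria, and the caspase gene Casp6 were called higher in OMVSSDC (0.73 and 0.40, adjusted p = 0.0368 and 0.0400) but the calls rest on single libraries. Casp6 kept its call without OMVSSDC replicate 3 or PBSDC replicate 3 and lost it without any other single library, and Htra2 kept it without OMVSSDC replicate 3 or ZJDC replicate 1 or 3 and lost it otherwise (adjusted p of the lost calls 0.0508 to 0.155). Without OMVSSDC replicate 3, 4 of the 12 were higher and 4 lower in OMVSSDC, and 2 higher and 5 lower in ZJDC.

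The inhibitor of apoptosis proteins, which bind caspases or signalling complexes, were mostly higher. In OMVSSDC 5 of 7 rose and 1 fell, and in ZJDC 6 rose and 1 fell, with median log2 fold changes of 0.80 and 0.76. Without OMVSSDC replicate 3 the counts were 4 and 1 in OMVSSDC, and 6 and 1 in ZJDC. Of all tested genes 33.4% were higher in OMVSSDC and 27.6% in ZJDC. Birc2, the ubiquitin ligase cIAP1, averaged 69.1 ± 8.30 CPM in OMVSSDC, 55.5 ± 3.40 CPM in ZJDC and 32.6 ± 1.44 CPM in PBSDC (SD, n = 3 each). It rose by 1.08 in OMVSSDC and 0.77 in ZJDC (adjusted p = 6.24e-06 and 9.61e-05). Naip5, better known as a sensor of bacterial flagellin, rose by 1.28 and 1.14 (adjusted p = 1.56e-07 and 5.03e-07). Its relatives Naip2 and Naip6 were also among the genes called higher in OMVSSDC, at 0.80 and 0.32 (adjusted p = 8.13e-06 and 0.0486). The Naip genes are close copies, so reads could be split between them, and their calls are not independent. Birc6, a very large ubiquitin ligase, fell by 0.73 and by 0.46 (adjusted p = 2.39e-05 and 0.000655).

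In the death receptor pathway, which reaches the BCL2 family through Bid, 2 of 6 tested genes rose and 2 fell in OMVSSDC, and 1 rose and 1 fell in ZJDC, beside 63.6% and 54.7% of all tested genes called in the 2 comparisons. Leaving out OMVSSDC replicate 3 gave 3 and 2 in OMVSSDC, and 1 and 2 in ZJDC. Cflar, the caspase-8 inhibitor c-FLIP, averaged 624 ± 63.0 CPM in OMVSSDC, 601 ± 24.96 CPM in ZJDC and 234 ± 22.0 CPM in PBSDC (SD, n = 3 each). It rose by 1.42 and 1.36 (adjusted p = 7.10e-07 and 1.40e-06). Ripk1, a kinase of the same complexes, fell by 0.73 in OMVSSDC and by 0.32 in ZJDC (adjusted p = 0.000364 and 0.0361), the ZJDC call being lost without PBSDC replicate 1 or 2 or ZJDC replicate 2 or 3 (adjusted p = 0.107 to 0.120). Fadd, the adaptor of caspase-8, fell by 0.35 in OMVSSDC (adjusted p = 0.0109; in ZJDC -0.20, adjusted p = 0.107). That call was lost with library size alone (-0.23, adjusted p = 0.0879) and with replicate 3 as the sole OMVSSDC library (adjusted p = 0.0503). Tnfrsf1a, a TNF receptor, was called higher in OMVSSDC by 0.21 (adjusted p = 0.0248) but not without OMVSSDC replicate 1 or 2 or PBSDC replicate 1 or 2 (adjusted p = 0.0843 to 0.0968), nor with the length trend removed (adjusted p = 0.0648) or the length and GC trend removed (adjusted p = 0.585).

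Of 10 tested transcription factors known to act on BH3-only genes, 4 were higher and 3 lower in OMVSSDC than in PBSDC, and 4 higher and 2 lower in ZJDC, near the 63.6% and 54.7% of all tested genes called. The counts without OMVSSDC replicate 3 were 5 and 4 in OMVSSDC, and 6 and 3 in ZJDC. Ddit3 (CHOP), a factor of the stress response known to raise Bbc3 and Bcl2l11, averaged 60.1 ± 3.56 CPM in OMVSSDC, 46.3 ± 1.14 CPM in ZJDC and 11.5 ± 0.901 CPM in PBSDC (SD, n = 3 each). It rose by 2.39 and 2.01 (adjusted p = 2.45e-08 and 1.05e-07), and in OMVSSDC against ZJDC it was the sole gene of the list called, at 0.38 (adjusted p = 0.0463). That call held without OMVSSDC replicate 3, where 2 of the list were higher and 5 lower, beside 6539 of all genes called. It was lost without any other single library (adjusted p = 0.0811 to 0.190). With replicate 3 as the sole OMVSSDC library Ddit3 was at 0.29 (adjusted p = 0.123) and no gene of the list was called, and Ddit3 did not pass with the length trend removed (adjusted p = 0.113). Atf4, which lies upstream of Ddit3, rose by 0.84 and 0.63 (adjusted p = 0.000148 and 0.00138). Myc fell by 1.05 in OMVSSDC (adjusted p = 0.000998; in ZJDC -0.44, adjusted p = 0.0750), and E2f1 fell by 0.55 and by 0.36 (adjusted p = 2.60e-05 and 0.000619).

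Further factors were chosen after their values were seen. Trp53, the gene of p53, averaged 169 ± 5.36 CPM in OMVSSDC, 178 ± 6.38 CPM in ZJDC and 244 ± 12.6 CPM in PBSDC (SD, n = 3 each), and fell by 0.53 and by 0.46 (adjusted p = 4.56e-05 and 0.000182). Foxo1 averaged 25.9 ± 7.51 CPM in OMVSSDC, 29.1 ± 2.27 CPM in ZJDC and 16.5 ± 1.14 CPM in PBSDC, and rose by 0.65 and 0.81 (adjusted p = 0.00873 and 0.00296). Foxo3, of the same family, was at 0.18 in OMVSSDC (adjusted p = 0.0419). RNA levels do not give the activity of these factors.

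Of 11 regulators of Mcl-1 and Bim protein, 2 rose and 6 fell in OMVSSDC, and 2 rose and 5 fell in ZJDC, not far from the 63.6% and 54.7% of all tested genes called. Huwe1, a ubiquitin ligase that marks Mcl-1 for degradation, fell by 0.84 in OMVSSDC and by 0.41 in ZJDC (adjusted p = 0.000115 and 0.0118; the ZJDC call was lost without ZJDC replicate 3, at 0.0506), and Ywhaz, a 14-3-3 protein, fell by 0.83 and by 0.49 (adjusted p = 2.23e-05 and 0.00101). Gsk3b, a kinase that primes Mcl-1 for degradation, rose by 0.81 and 1.04 (adjusted p = 0.000459 and 0.000122), and Mapk3, the kinase ERK1 that phosphorylates Bim, by 0.35 and 0.52 (adjusted p = 0.0107 and 0.00156). The OMVSSDC call of Mapk3 was lost with the length trend removed (0.28, adjusted p = 0.0928) and after removal of the length and GC trend (0.17, adjusted p = 0.416). Of 6 voltage-dependent anion channels and outer membrane partners, 0 rose and 3 fell in either comparison, while without OMVSSDC replicate 3, 3 rose and 3 fell in OMVSSDC and 0 rose and 4 fell in ZJDC. Of all tested genes 30.2% and 27.1% were lower in the 2 comparisons. Vdac2, which holds Bak at mitochondria, fell by 0.33 and by 0.39 (adjusted p = 0.00139 and 0.000587), and Bcap31, a partner in the endoplasmic reticulum, by 0.42 and by 0.51 (adjusted p = 0.0183 and 0.00794). The OMVSSDC call of Bcap31 was lost without PBSDC replicate 3 (adjusted p = 0.0553) and with library size alone (adjusted p = 0.116).

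The genes that correlated most with Bbc3 over the 9 libraries, among 9623 compared, were Pdgfb (Pearson r of log2 CPM 0.999), Rhoc (0.998) and Iars2 (0.996). A correlation does not measure the size of a change: Bbc3 ran from 12.6 to 116 CPM and Pdgfb from 178 to 278 CPM. These correlations describe 9 libraries that fall into 3 groups, with OMVSSDC replicates 1 and 2 apart.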

How the data were processed

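Total RNA of DC2.4 cells was sequenced in 9 libraries, 3 per group, with groups read from the titles. The submitters' processing notes name fastp 0.22.0, HISAT2 2.1.0 and HTSeq 0.9.1, without order or settings. A genome build, an annotation and a strand setting were not found in the labels or the table. The deposited table holds whole-number read counts per gene, not normalized, and FPKM, which the authors derived from them: each deposited FPKM equalled the count divided by gene length and library total, to a relative difference of 1.9e-07. Totals were 12784931 to 18388959 counts.

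The counts were tested with edgeR 4.0.16 (R 4.3.3; limma 3.58.1 for voom): TMM scaling, filterByExpr (minimum count 10, total 15), glmQLFit over all 9 libraries with group as the single term, two-sided glmQLFTest, Benjamini-Hochberg adjustment over 11568 genes, threshold 0.05. CPM are TMM-scaled; correlations used log2 CPM with a prior count of 2. The fits were also run on counts simulated from edgeR's own model, in which no library stood apart from its group. Alternatives were DESeq2 1.42.0, limma-voom, other scalings and filters, a length trend, a replicate block, 2-group fits, leaving out libraries and, added after the data were seen, a length and GC trend, with GC from GENCODE transcripts on GRCm38. Same-numbered libraries did not deviate together from their group means. With so few libraries per group this cannot decide whether the numbers pair them, so pairing by number is not known. A symbol in 2 rows (Ddit3) was kept apart by gene ID, the second row having 0 counts.

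The 10 genes and all lists (other BCL2 genes, cell death pathways, markers) were chosen with earlier results of these data known. Named were all 10, every tested BCL2 gene, and of each cell death list the 2 largest changes per direction in OMVSSDC against PBSDC with a mean of at least 5 CPM. A gene that this rule names is not reported here. For Bbc3 the 3 genes of highest correlation were named. Promoter windows are from RefSeq; protein sequences were not analysed here.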

Additional observations from a re-analysis of the deposited data

How the results depend on the processing

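Over the alternatives, the fold changes of the 10 genes kept their sign and their side of the threshold in 191 cases for OMVSSDC against PBSDC, gained the call in 6 and changed sign in 2. For ZJDC against PBSDC the numbers were 186, 13 and 0, and for OMVSSDC against ZJDC 173, 10 and 16. Among these 10 genes no call was lost. The cause of each difference below was not tested.

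With OMVSSDC replicates 1 and 2 left out (7 libraries), log2 fold changes that turned sign were Bax -0.37, Bcl2l12 0.056 and Htra2 -0.14 in OMVSSDC against PBSDC, and Mcl1 0.14, Bax -0.13, Bak1 0.083, Bbc3 -0.025, Bid 0.062 and Bad -0.43 in OMVSSDC against ZJDC. That setting gave 8 called members in ZJDC against PBSDC, as did the fit of the 2 groups alone, and 355 genes in OMVSSDC against ZJDC, where 226 had been called. With the length and GC trend removed, Bax was at -0.22 in OMVSSDC against PBSDC, Bcl2l14 at 0.027 in ZJDC against PBSDC and Bad at -0.076 in OMVSSDC against ZJDC, where 532 genes and 1 of the 10 (Bcl2) were called. With the length trend alone removed, Bcl2l13 was at -0.0078 and Bcl2l14 at 0.010 in ZJDC against PBSDC, and 368 genes were called in OMVSSDC against ZJDC. With library size alone, Bcl2l12 was at 0.078 in OMVSSDC against PBSDC, Bcl2l14 at 0.063 in ZJDC against PBSDC, and Mcl1 at 0.054 and Bid at 0.036 in OMVSSDC against ZJDC. Bcl2l14 in ZJDC against PBSDC was also at 0.00057 with no filter and 0.12 with limma-voom.

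In OMVSSDC against ZJDC, DESeq2 called 1643 genes and 3 of the 10, and the fit of the 2 groups alone 0 genes. A replicate block was fitted too, though pairing by number is not known (the correlation of same-numbered deviations was -0.388 to 0.0887). It called 7, 5 and 0 of the 10 in the 3 comparisons and 0 genes in OMVSSDC against ZJDC. The block put Bcl2l14 at 0.050 in ZJDC against PBSDC.

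Leaving out 1 library at a time, Bcl2l12 ranged from -0.19 to 0.084 and Bcl2l14 from -0.67 to 0.16 in OMVSSDC against PBSDC, and Bcl2l14 from -0.27 to 0.55 in ZJDC against PBSDC. In OMVSSDC against ZJDC, Mcl1 ranged from -0.094 to 0.039, Bid from -0.076 to 0.0067 and Bad from -0.092 to 0.34. Members called ranged from 7 to 10, from 5 to 8 and from 0 to 6 in the 3 comparisons. Genes called ranged from 6544 to 8813, from 5459 to 8242 and from 0 to 6539. The highest number each time came without OMVSSDC replicate 3. Where a group keeps 1 library, it is assumed to vary like the others.

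Bad, at 1 to 20 counts per library, is limited by depth.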

Other observations

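Genes of necroptosis and pyroptosis, the lytic forms of cell death, were mostly higher in both groups. Of 8 tested, 7 rose and 0 fell in OMVSSDC against PBSDC, and 6 rose and 1 fell in ZJDC against PBSDC, with a median log2 fold change of 0.63 in each. The gene that fell was Ripk3, named after its values were seen. Its log2 fold change was -0.34 in ZJDC (adjusted p = 0.0297) and -0.18 in OMVSSDC (adjusted p = 0.199). Of all tested genes 33.4% were higher in OMVSSDC and 27.6% in ZJDC. Ninj1, which ruptures the plasma membrane of dying cells, rose by 1.92 in OMVSSDC and 1.65 in ZJDC (adjusted p = 2.41e-08 and 8.74e-08). Zbp1, a sensor of unusual nucleic acids, rose by 1.48 and 1.17 (adjusted p = 7.30e-07 and 5.15e-06). In OMVSSDC against ZJDC 0 of the 8 passed in edgeR's quasi-likelihood test, with 3 at an unadjusted p under 0.05. Without OMVSSDC replicate 3, 4 were higher and 2 lower in OMVSSDC than in ZJDC, beside 6539 of all genes called in that setting.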
